A study of Homo sapiens with 6 samples.

Results

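The SMG and UPF genes encode the core proteins of nonsense-mediated mRNA decay. The genes described here are SMG1, SMG5, SMG6, SMG8, SMG9, UPF1, UPF2, UPF3A and UPF3B, taken by gene symbol in the annotation of the array. A named probe set was found for 7 of the 9, with 1 probe set each, among 17687 named genes. UPF3A and UPF3B were not analysed here. The group was chosen by measured values, since the SMG8 probe set was among those with the smallest p in the contrast described below. The differences of the members in that contrast are therefore given as a description. Their standard errors and intervals show precision only, and no p or test is given for them.

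Nonsense-mediated decay degrades mRNAs on which the ribosome terminates too early, typically upstream of an exon junction complex. UPF1 is the RNA helicase at the centre of the pathway, UPF2 and the UPF3 proteins link it to the exon junction complex, and the kinase SMG1 phosphorylates it. SMG8 and SMG9 bind SMG1 and hold its activity in check. Phosphorylated UPF1 recruits SMG6, an endonuclease, and SMG5, an adaptor that helps to bring decapping and deadenylation enzymes. Several of these factor transcripts are themselves decay targets, which couples their levels to the activity of the pathway.

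Expression was measured in HS578T, a human breast carcinoma line of mesenchymal character, on Affymetrix whole-transcript arrays. The control group held 3 cultures stably transfected with the empty expression vector pcDNA 3. The EP300 group held 3 cultures stably transfected with pcDNA 3 carrying EP300 cDNA, which encodes a lysine acetyltransferase and transcriptional co-activator. Both groups were pools of many clones selected with G418 and grown in medium with G418, insulin and serum, each culture was hybridised to its own array, and no label says whether the cultures of a group came from separate transfections. In such pools, fewer cells with a transcript and less transcript per cell cannot be told apart. The level of EP300 itself was not analysed here.

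The array medians lay between 4.46 and 4.5 on the log2 scale and the lower quartiles between 3.47 and 3.5. All 8 mesenchymal markers (VIM, SPARC, FN1, CAV1, AXL, ZEB1, SNAI2 and CD44) were above the upper quartile of every array. Of 8 luminal epithelial markers 1, KRT8, lay above the median on every array, and CDH1, EPCAM, PGR and KRT19 lay below it on every array. Of the 4 measured leukocyte markers 0 lay above the median on every array and 2 below it. Of the 4 endothelial markers 1, VWF, lay above it on every array (4.62 to 5.16) and 3 below. The mean level of the leukocyte markers was 3.93 to 4.20 in control and 3.86 to 4.12 in EP300 cultures, and that of the endothelial markers was 3.46 to 3.65 and 3.37 to 3.64. Over all 21448 probe sets, limma called 0 at a Benjamini-Hochberg adjusted p of 0.05 (0% of the table), so no member was called. At an unadjusted p under 0.05 there were 1399 probe sets (6.52%), 3.45% of the table higher and 3.07% lower.

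SMG8 was the member with the largest difference. It encodes the regulatory subunit that, with SMG9, restrains the SMG1 kinase. The SMG8 probe set read 4.56, 4.41 and 4.38 on the control arrays and 3.31, 2.89 and 3.07 on the EP300 arrays (log2, replicates 1 to 3). Every EP300 culture lay below every control culture, with a gap wider than the spread within either group. The means were 4.45 ± 0.10 and 3.09 ± 0.21 (SD, n = 3 each), and the difference was -1.36 ± 0.21 (SE), with a 95% interval from -1.84 to -0.89. Leaving out any array kept it between -1.47 and -1.26. The within-group SD of 0.16 was smaller than that of most probe sets, for which the median was 0.31. Of the 36 probe sets that were lower by more than 1 (0.168% of the table), SMG8 had the 5th largest difference. SMG8 was chosen for a small p in this contrast, which favours a wide gap, a small SD and a narrow leave-one-out range. These values therefore describe the probe set and are no sign of a stable effect.

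The level of SMG8 moved from the middle to the low end of the arrays. On the control arrays it stood between the 48.1 and the 51.3 percentile of all probe sets, close to the array median. On the EP300 arrays it stood at the 20, 7.94 and 12.4 percentile, below the lower quartile. The table gives no background signal, so the level at which a probe set stops reporting its transcript is unknown and no fold is given for SMG8.

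**Figure D1:**
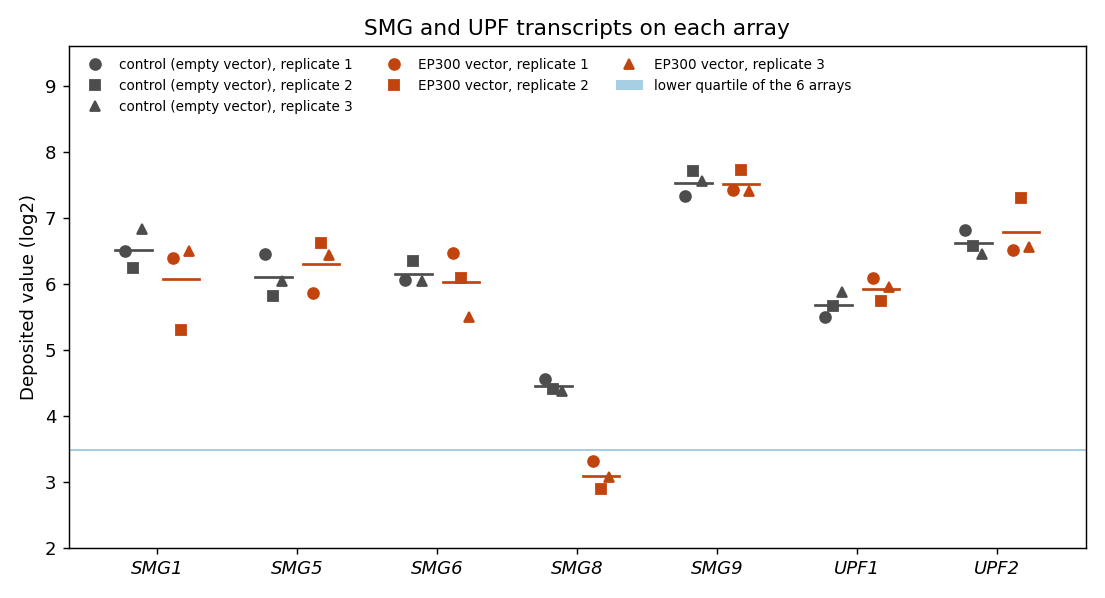
Deposited value (log2) of the 7 measured SMG and UPF genes on each array, with control cultures in grey, EP300 cultures in orange, marker shape for the replicate number, and a short line for each group mean (n = 3). The thin blue band marks the lower quartiles of the arrays. SMG8 is the member whose groups do not overlap, at 4.38 to 4.56 in control and 2.89 to 3.31 in EP300 cultures.

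SMG9, the partner of SMG8 on the kinase, showed no such step. It read 7.32, 7.70 and 7.56 in control and 7.42, 7.72 and 7.40 in EP300 cultures. The ranges lay almost on top of each other, with means of 7.53 ± 0.19 and 7.51 ± 0.18 (SD, n = 3 each). The difference was -0.01 ± 0.22 (SE), with a 95% interval from -0.50 to 0.47.

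SMG1, the kinase that phosphorylates UPF1, read 6.49, 6.23 and 6.82 in control and 6.39, 5.30 and 6.50 in EP300 cultures. EP300 replicate 2 stood apart at the bottom, while the other 2 EP300 cultures lay inside the control range. The difference of -0.45 ± 0.33 (SE; 95% interval -1.20 to 0.30) shrank to -0.07 without EP300 replicate 2. SMG1 had the largest within-group SD of the members, 0.52, above 88.7% of all probe sets. The RefSeq gene table lists 7 SMG1 pseudogenes, SMG1P1 to SMG1P7, all on chromosome 16 with SMG1, and 0 of them had a named probe set here. These are near copies of SMG1, and how far their transcripts add to its signal was not tested.

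The effectors SMG5 and SMG6 overlapped between the groups. SMG5, the adaptor that binds phosphorylated UPF1, read 6.45, 5.81 and 6.04 in control and 5.86, 6.62 and 6.43 in EP300 cultures. Its difference was 0.20 ± 0.27 (SE; 95% interval -0.40 to 0.81), or 0.05 without EP300 replicate 2. SMG6, the endonuclease that cuts the target near the stop codon, read 6.06, 6.34 and 6.04 in control and 6.47, 6.09 and 5.50 in EP300 cultures. The EP300 cultures thus held both the highest and the lowest SMG6 value. Its difference was -0.13 ± 0.27 (SE; 95% interval -0.73 to 0.48), and it was 0.13 without EP300 replicate 3.

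The helicase gene UPF1 read 5.49, 5.66 and 5.87 in control and 6.08, 5.73 and 5.95 in EP300 cultures. Of the EP300 cultures, 2 lay above all control cultures and replicate 2 lay within their range. The difference was 0.25 ± 0.22 (SE; 95% interval -0.24 to 0.73), and it stayed between 0.16 and 0.34 when any array was left out. UPF2, the bridge between UPF1 and the UPF3 proteins, read 6.81, 6.57 and 6.45 in control and 6.51, 7.29 and 6.55 in EP300 cultures. EP300 replicate 2 was again the culture that stood apart, here at the top. The UPF2 difference of 0.17 ± 0.26 (SE; 95% interval -0.42 to 0.76) became -0.08 without that replicate.

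Of the 7 members, 3 had a positive and 4 a negative difference, with a median of -0.01 beside a median of 0.00 over all probe sets. Compared on unrounded values, the groups did not overlap for 1 member, SMG8, which lay lower in EP300 cultures. Over all probe sets the groups did not overlap in 12.2%, with EP300 cultures lower in 5.91% and higher in 6.3%. For the other 6 members the size of the difference ran from 0.01 to 0.45, against a median size of 0.20 over all probe sets. EP300 replicate 2 gave the highest value of 3 members (SMG5, SMG9 and UPF2) and the lowest of 2 (SMG1 and SMG8). SMG8 had a Pearson correlation over the 6 arrays of 0.564 with SMG1, 0.272 with SMG6, -0.105 with SMG9, -0.392 with UPF2, -0.402 with SMG5 and -0.578 with UPF1. These values mix the group difference with the spread of the cultures and are given as a description.

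**Figure D2:**
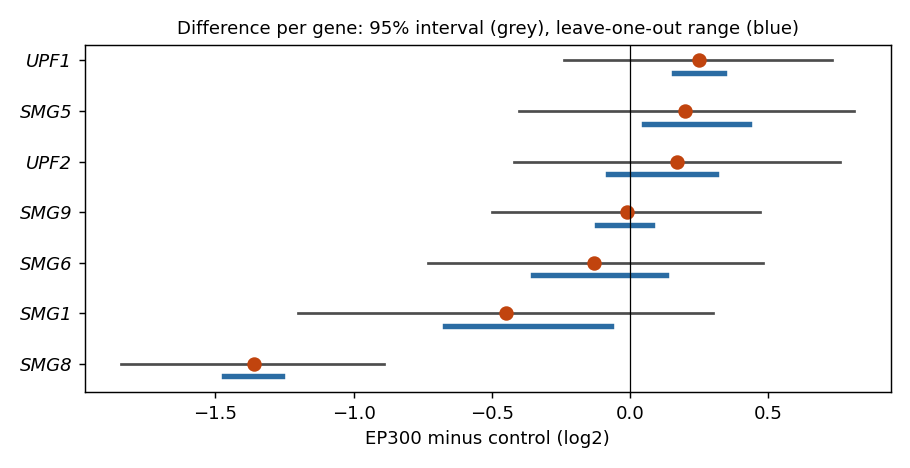
EP300 minus control difference (log2) of each member as an orange point, with its 95% interval from limma in grey and the range when each array in turn was left out in blue. The point of SMG8 lies at -1.36, with an interval from -1.84 to -0.89, and the points of the other 6 members lie between -0.45 (SMG1) and 0.25 (UPF1).

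The members lie apart in the genome. SMG6 and SMG8 are both on chromosome 17, UPF1 and SMG9 both on chromosome 19, and SMG5, UPF2 and SMG1 are on chromosomes 1, 10 and 16. The protein-coding neighbours of SMG8 in the RefSeq gene order are PRR11, a gene linked to cell cycle progression, and GDPD1, which encodes a phosphodiesterase for lysophospholipids. Neither was lower with SMG8. PRR11 read 12.54, 12.42 and 12.36 in control and 12.97, 12.70 and 12.91 in EP300 cultures. The EP300 cultures lay above all controls, with a difference of 0.42 ± 0.20 (SE; limma adjusted p = 0.787). GDPD1 read 3.22, 3.21 and 2.75 in control and 3.65, 3.54 and 3.98 in EP300 cultures. It too had groups that did not overlap, at a low level, with a difference of 0.67 ± 0.23 (SE; limma adjusted p = 0.746). Neither neighbour passed the threshold. Over all probe sets the groups did not overlap in 12.2%, with EP300 cultures higher in 6.3%, so no local pattern is read from these neighbours.

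Among 13191 other protein-coding genes above the lower quartile of mean level, the profiles most like that of SMG8 over the 6 arrays were those of LRRN3, MTCH2, SHISA3, ARMC6 and OR8J1. Their Pearson correlations with SMG8 were 0.993, 0.988, 0.982, 0.980 and 0.978. ARMC6, an armadillo repeat gene, read 6.69, 6.67 and 6.84 in control and 6.10, 5.77 and 5.96 in EP300 cultures. MTCH2, which encodes a protein of the mitochondrial outer membrane, read 9.71, 9.55 and 9.52 in control and 9.18, 9.0 and 9.03 in EP300 cultures. Chosen for this likeness, all 5 show the step of SMG8 between the groups, with differences from -0.79 (ARMC6) to -0.24 (SHISA3). The correlations are a description. Of the candidates, 135 had a correlation of at least 0.9.

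**Figure D3:**
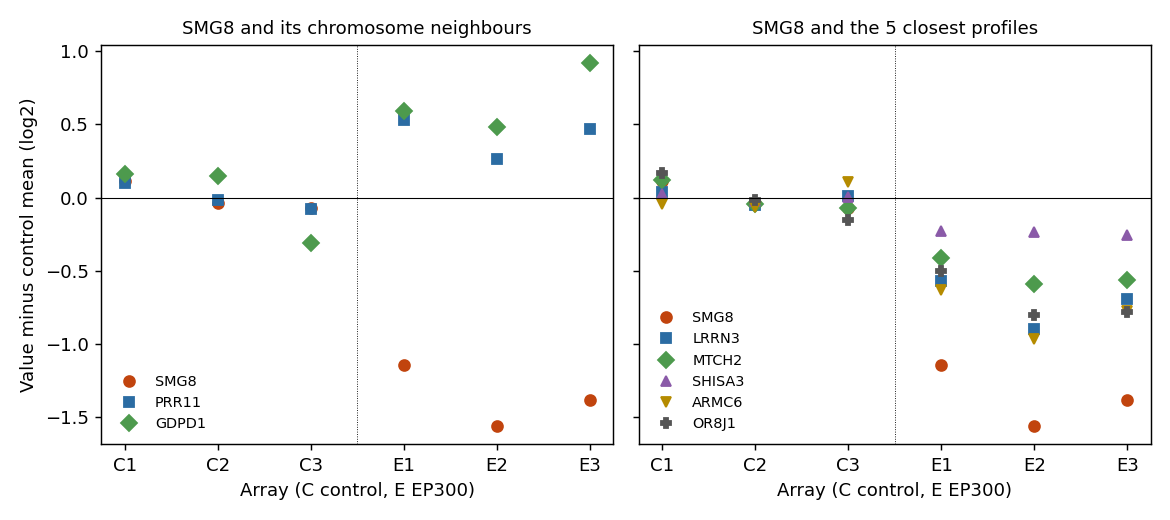
Value minus the mean of the control arrays (log2) on each array, for SMG8 with its neighbours on chromosome 17 (left) and with the 5 genes of the most similar profile (right), where C1 to C3 are the control and E1 to E3 the EP300 replicates. SMG8 is lower on the EP300 arrays by 1.36 on average, PRR11 and GDPD1 are higher, and the 5 genes chosen for a similar profile are at differences from -0.79 to -0.24.

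Promoter windows of 250 bases before the transcription start were read from RefSeq (GRCh38.p14) for 6 of the 7 measured members. SMG8 had none. Counting alternative starts, there were 11 windows. The cyclic AMP response element TGACGTCA, bound by CREB proteins that recruit EP300 and its paralog, was present in 0 of the 11 windows and in 1.65% of all 35116 windows. The letters CCGGAAG, an extended form of the motif bound by ETS factors, were also in 0 of the 11, beside 8.52% of all windows. Shorter or variant forms of the ETS motif were not searched. The CCAAT box (CCAAT), the element bound by NF-Y, was found on either strand in 4 of the 11 windows, beside 32.0% of all, and these belonged to SMG5, UPF1 and UPF2. This share is near that of all windows, so nothing is read from it. The counts of 0 for the other motifs are not read either, since 11 windows are too few for motifs at such shares. A window of each of these 3 genes is shown because it holds the box, with the CCAAT letters, or ATTGG where the box is on the other strand, in capitals. The motifs do not overlap each other in these windows. For UPF1 the window is chr19:18831709-18831958 (plus strand), for UPF2 chr10:12043171-12043420 (minus strand) and for SMG5 chr1:156291517-156291766 (minus strand), each upstream of the annotated gene and written 5′ to 3′ on the strand of the gene.
UPF1: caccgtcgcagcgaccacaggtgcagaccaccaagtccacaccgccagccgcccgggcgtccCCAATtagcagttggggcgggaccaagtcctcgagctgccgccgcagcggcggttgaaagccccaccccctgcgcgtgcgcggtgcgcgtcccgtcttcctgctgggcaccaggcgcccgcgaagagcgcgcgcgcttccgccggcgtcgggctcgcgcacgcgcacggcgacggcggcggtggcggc
UPF2: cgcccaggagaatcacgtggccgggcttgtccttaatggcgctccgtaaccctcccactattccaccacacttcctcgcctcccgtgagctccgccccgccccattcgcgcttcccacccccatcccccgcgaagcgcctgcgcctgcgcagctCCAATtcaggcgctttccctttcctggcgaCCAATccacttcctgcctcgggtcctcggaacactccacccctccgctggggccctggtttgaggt
SMG5: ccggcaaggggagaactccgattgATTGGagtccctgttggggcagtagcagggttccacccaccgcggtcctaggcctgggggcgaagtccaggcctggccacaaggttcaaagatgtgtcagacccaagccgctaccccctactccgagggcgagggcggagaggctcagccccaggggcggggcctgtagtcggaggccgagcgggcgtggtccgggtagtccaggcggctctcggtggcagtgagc

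The UPF1 window held 75.6% G and C, that of UPF2 66.0% and that of SMG5 68.0%, beside a median of 58% over all windows. The windows shown do not stand for all members. The other SMG5 window with the box held 55.6%, and the SMG6 windows ran from 32.0% to 79.6%. UPF2 carried the box at 2 places and the other windows shown at 1. A match of these letters is a description of the sequence and not a measured binding site.

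The rest of the pathway was followed in 8 lists with 126 genes, of which 106 were measured. By limma 0 of the 106 passed the adjusted threshold, with 0.735 as the lowest adjusted p. At an unadjusted p under 0.05 there were 4 higher and 4 lower (7.55%, beside 6.52% of all probe sets). The groups did not overlap for 15 (14.2%, beside 12.2%), of which 9 were higher and 6 lower in EP300 cultures. The median difference of the 106 was 0.02. None of them was lower by as much as SMG8, but SMG8 was chosen by this contrast, so nothing is read from that comparison. The 2 genes named below in each list are those of smallest p. That choice favours large differences and groups that do not overlap, so the named genes do not stand for their list.

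Upstream, the exon junction complex marks spliced junctions for UPF2 and UPF3 proteins. Of 12 measured genes for this complex and its partners, 8 were higher and 4 lower, with a median of 0.11 (0.06 to 0.19 when an array was left out, lowest without EP300 replicate 3 and highest without EP300 replicate 2). PYM1, which removes the complex from translated mRNA, read 5.19, 4.89 and 4.97 in control and 3.98, 4.46 and 3.72 in EP300 cultures. Its groups did not overlap, and its difference was -0.97 ± 0.24 (SE; limma adjusted p = 0.735). ALYREF, an mRNA export adaptor, lay higher in all EP300 cultures, at 9.81 to 10.05 against 9.37 to 9.75 (difference 0.45 ± 0.21, limma adjusted p = 0.787).

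Another list joined termination factors, which act when the ribosome reaches a stop codon, with cap-binding and related factors. Over 11 measured genes the median difference was 0.03, and it was -0.02 without control replicate 2 or EP300 replicate 3. GSPT2, a paralog of the release factor gene GSPT1, read 3.63, 3.59 and 4.03 in control and 3.37, 3.15 and 3.48 in EP300 cultures, which is near the lower quartile of the arrays, and its difference of -0.42 was -0.28 without control replicate 3. The scaffold gene EIF4G1 read 9.73 to 9.87 in control and 9.24 to 9.62 in EP300 cultures. Both had groups that did not overlap, and neither passed (limma adjusted p = 0.796 and 0.830).

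The other decay factors and the kinases related to SMG1 showed no groups without overlap, beside 12.2% of all probe sets. With 7 and 10 measured genes these lists are too small for anything to be read from that. Of 7 other decay factors 5 were lower, with a median of -0.10 that had no stable direction. It was 0.01 without control replicate 2, 0.10 without control replicate 3 and 0.04 without EP300 replicate 2, and -0.25 without control replicate 1. MOV10, a helicase that associates with UPF1, differed by -0.36 ± 0.34 (SE) and PNRC2, which joins UPF1 to the decapping enzyme, by -0.25 ± 0.24. MOV10 was at -0.05 without control replicate 3 and PNRC2 at -0.05 without control replicate 2. Of 10 kinases of the SMG1 family and their chaperones 6 were lower, with a median of -0.10 (-0.02 without control replicate 3). PRKDC, encoding the DNA-dependent protein kinase, differed by 0.42 ± 0.35, and TTI1, a cochaperone for these kinases, by -0.28 ± 0.24. PRKDC was at 0.16 without control replicate 2, 0.22 without control replicate 1 and 0.88 without control replicate 3, and TTI1 at -0.10 without control replicate 3 and -0.45 without control replicate 1. The lowest limma adjusted p in these lists was 0.895 and 0.887.

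Downstream, the decay machinery went both ways. Of 18 decapping and 5′-to-3′ decay genes 12 were lower, with a median of -0.16, which was -0.04 without EP300 replicate 2 and -0.10 without control replicate 1. The 2 with the smallest p were nevertheless higher. PATL1, a decapping scaffold, differed by 0.47 ± 0.22 (SE; limma adjusted p = 0.781) and LSM6, of the LSM ring, by 0.43 ± 0.24 (0.808). LSM6 was at 0.27 without control replicate 3.

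Of 13 deadenylation genes, 7 were higher and 6 lower, with a median of 0.02 (-0.01 without control replicate 2, 0.09 without control replicate 1). CNOT10, a subunit of the CCR4-NOT deadenylase, read 4.13, 5.34 and 5.40 in control and 5.96, 6.38 and 5.68 in EP300 cultures. Its difference of 1.05 ± 0.35 (SE; limma adjusted p = 0.740) was 0.63 without control replicate 1, the lowest culture. TOB1, an adaptor that recruits the deadenylase, was lower in every EP300 culture, at 5.63 to 5.97 against 6.17 to 6.53 (difference -0.58 ± 0.21, limma adjusted p = 0.746).

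The exosome, which degrades RNA from the 3′ end, and its SKI cofactors had 11 genes higher and 5 lower of 16. Their median was 0.14, or 0.06 without control replicate 1, 0.09 without EP300 replicate 3 and 0.22 without EP300 replicate 2. Of its core subunits, EXOSC9 read 7.21, 7.55 and 7.0 in control and 8.09, 8.13 and 8.38 in EP300 cultures, and EXOSC3 read 5.92, 5.13 and 4.66 in control and 4.26, 4.48 and 4.34 in EP300 cultures. These subunits were named for the smallest p of the list, which favours large differences. They lay on opposite sides, at 0.94 ± 0.23 and -0.87 ± 0.31 (SE; limma adjusted p = 0.735 and 0.746). The EXOSC3 difference was -0.53 without control replicate 1.

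Genes with transcripts known as decay targets lay on both sides of 0. Of the 26 in this list 7 were not measured, among them GAS5, SNHG1 and ZFAS1. Each gene was read by 1 probe set, which does not separate target isoforms from others, for example in SRSF3 and TRA2B. The values are therefore no readout of decay activity. Of 19 measured, 10 were higher and 9 lower, with a median of 0.05. It was -0.16 without EP300 replicate 2, -0.14 without control replicate 3 and -0.09 without control replicate 1. BAG1, which encodes a cochaperone of HSP70 proteins, read 3.59, 4.26 and 3.80 in control and 4.39, 4.80 and 5.47 in EP300 cultures, with a difference of 1.00 ± 0.31 (SE; limma adjusted p = 0.735). TBL2, a membrane protein of the endoplasmic reticulum, read 7.46, 7.54 and 6.99 in control and 7.0, 6.88 and 6.21 in EP300 cultures, with a difference of -0.63 ± 0.27 (SE; limma adjusted p = 0.765). EP300 replicate 1 lay just above control replicate 3, so its groups overlapped, and its difference was -0.39 without EP300 replicate 3.

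**Figure D4:**
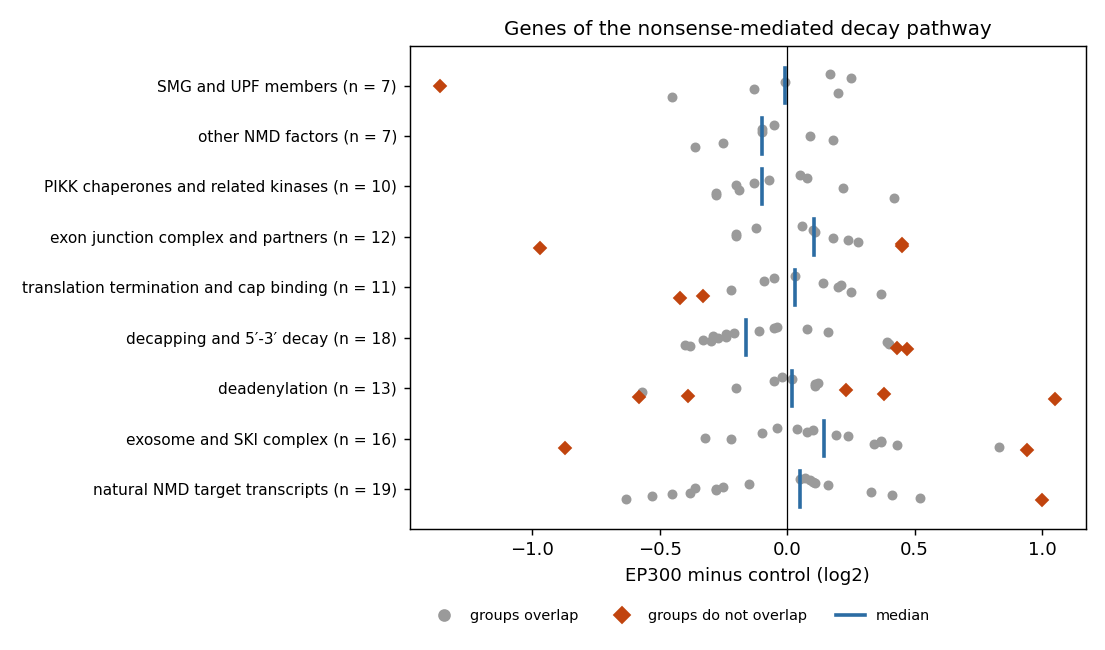
EP300 minus control difference (log2) of each measured gene, for the 7 SMG and UPF members (top row) and 8 other lists of the pathway, with genes whose groups do not overlap as orange diamonds, the others as grey circles, and a blue line at the list median. SMG8, which was chosen by this contrast, lies furthest from 0 at -1.36, and the list medians lie between -0.16 and 0.14.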

How the data were processed

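Transcript levels of 6 HS578T cultures were measured on Affymetrix arrays, 1 array each, in 2 groups of 3. The values the authors deposited, 1 for each of 21448 probe sets and array, were taken as log2 values. That scale is inferred from their range (1.79 to 19.93). Partek 6.6 is named in the submitters' processing notes. How the authors corrected background and normalized, and on which build, is not given in the sources used here, and arrays (3 per group) limit the precision.

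EP300 minus control was fitted over all probe sets with limma 3.58.1 (lmFit and eBayes) in R 4.3.3, with no filter, covariate or block and Benjamini-Hochberg adjustment; the threshold was 0.05. The fit was run on data simulated under its own model, which checks the code and not whether these arrays meet that model. Each p-value weighs a group difference against the spread between cultures, moderated by the spread over all probe sets. That spread may leave out variation between transfections, since no label says whether cultures of a group were transfected separately. Genes were named from the platform annotation (17709 probe sets with 1 symbol, 3739 with none), each by its probe set of highest mean. Members and lists were chosen with earlier results of these data known. The text names all members, the 2 genes of smallest p in each list, the 5 profiles most like SMG8 and its nearest measured neighbours; the promoter motifs were chosen after the values were seen. Alternatives were quantile normalization, median centring, a filter at the lower quartile, a variance trend, 1 probe set per gene, a replicate block and leaving out each array.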

Additional observations from a re-analysis of the deposited data

How the results depend on the processing

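Of the 12 alternative settings, 8 can move a difference between group means (quantile normalization, median centring and leaving out each array). Over these 8 SMG8 ran from -1.47 to -1.26, SMG1 from -0.67 to -0.07, SMG5 from 0.05 to 0.43, SMG6 from -0.35 to 0.13, SMG9 from -0.12 to 0.08, UPF1 from 0.16 to 0.34 and UPF2 from -0.08 to 0.31. SMG8 was chosen by this contrast, so its direction is no sign of stability. The median of the members ran from -0.1155 to 0.1322. The count of probe sets called by limma was 0 in every setting except a variance trend with robust estimation, where it was 4, with 0 members among them. At an unadjusted p under 0.05 it was 1225 to 1383 when an array was left out. The pathway genes called were 0 in all settings, and 8 of 106 at an unadjusted p under 0.05 became 6 to 12 when an array was left out and 10 with a variance trend; their lowest adjusted p ran from 0.415 to 0.866. Beside the count of 4, the values that moved beyond the spread between replicates were the medians of the decapping and decay-target lists without EP300 replicate 2 (-0.04 and -0.16). Cause was not tested. SMG8 and GDPD1 lie where the background of the arrays is unknown, which limits what their values show. The same limit holds for other genes low on the arrays, such as OR8J1, GSPT2, BAG1 in control and PYM1 in EP300 cultures. With the replicate number of the titles as a replicate block, 0 probe sets were called and 1295 had an unadjusted p under 0.05. Deviations of same-numbered arrays from their group means correlated at -0.00893 to -0.00153. Such correlations over all probe sets cannot decide whether same-numbered cultures were handled together.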

Other observations

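Of the pathway genes outside the naming rule, 4 had groups that did not overlap, all chosen after seeing their values. RNPS1, a splicing factor at the exon junction complex, read 7.10, 7.17 and 6.93 in control and 7.72, 7.63 and 7.21 in EP300 cultures, a difference of 0.45 ± 0.22 (SE; limma adjusted p = 0.789). The other 3 were deadenylation genes. The catalytic subunit gene CNOT8 read 8.28 to 8.48 in control and 7.78 to 8.14 in EP300 cultures, CNOT4, encoding a ubiquitin ligase of the same complex, 5.95 to 6.14 and 6.14 to 6.77 (touching at these digits and apart before rounding), and the poly(A) ribonuclease gene PARN 6.70 to 6.95 and 6.96 to 7.15. None passed the adjusted threshold (limma adjusted p = 0.796, 0.821 and 0.891). Over all 106 measured pathway genes the groups did not overlap in 14.2%, beside 12.2% of all probe sets. The genes of smallest p were taken out by the naming rule, so the count of 4 is not comparable with these shares. SKIC8, a SKI complex subunit, differed by 0.83 ± 0.32 with groups that overlapped (limma adjusted p = 0.748).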
